A study of Mus musculus with 3 samples.

Results

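The 10 genes described here regulate spermatogonia, the mitotic germ cells of the testis, and were taken as a named list: Zbtb16, Gfra1, Nanos2, Nanos3, Kit, Stra8, Dmrt1, Dmrtb1, Sohlh1 and Sohlh2. All 10 were found by symbol among the 36809 genes present in the 3 deposited tables, all are protein-coding, and each had an estimate marked OK in all 3 libraries. The study measured polyadenylated RNA by strand-specific sequencing of whole testis, brain and liver from male C57BL/6 mice aged 11 weeks, with 1 library per tissue. The labels do not give how many animals went into a library. Abundance is in FPKM, fragments scaled to transcript length and to library size, and each value has the authors' lower and upper confidence bound, given below as its interval. The intervals cover the estimate within a library only, and with a lone library per tissue the spread between animals is unknown, so no test was run and no p-value is given. In whole organs, fewer cells of a type and less RNA per cell cannot be told apart.

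Spermatogonia lie at the base of the seminiferous tubule, and a small stem cell pool among them renews itself for life. Self-renewal depends on GDNF from supporting cells, which signals through GFRA1 and RET, and on the repressors ZBTB16 (also called PLZF) and NANOS2. SOHLH1 and SOHLH2 and the receptor tyrosine kinase KIT mark and drive differentiation, and retinoic acid then induces Stra8, which is needed to enter meiosis. DMRT1 holds back that entry and DMRTB1 (also called DMRT6) acts at the exit from the mitotic program. Spermatogonia are a small share of the cells of an adult testis, most of which are spermatocytes and spermatids.

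The 10 genes did not share a tissue pattern. Dmrtb1 alone made up 92.3% of their summed 231 FPKM in testis, while Gfra1 made up 55.1% of 13.5 FPKM in brain and 90.9% of 27.9 FPKM in liver. At 1 FPKM or more stood 6 of the 10 in testis, 3 in brain and 2 in liver, beside 57.9%, 58.5% and 43.9% of 20147 protein-coding genes. The median member was at 1.46 FPKM in testis, compared with 0.230 in brain and 0.00249 in liver, and the median protein-coding gene at 2.001, 2.13 and 0.506 FPKM. Ranked among protein-coding genes of the testis library from the most abundant down, Dmrtb1 was 481st, Stra8 7167th, Dmrt1 7874th, Sohlh2 8942nd, Kit 10353rd, Sohlh1 11391st, Gfra1 12249th, Nanos3 12518th, Zbtb16 15027th and Nanos2 17104th. Gfra1, Nanos3, Zbtb16 and Nanos2, the genes tied to the undifferentiated state, held the lowest ranks of the list.

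**Figure D1:**
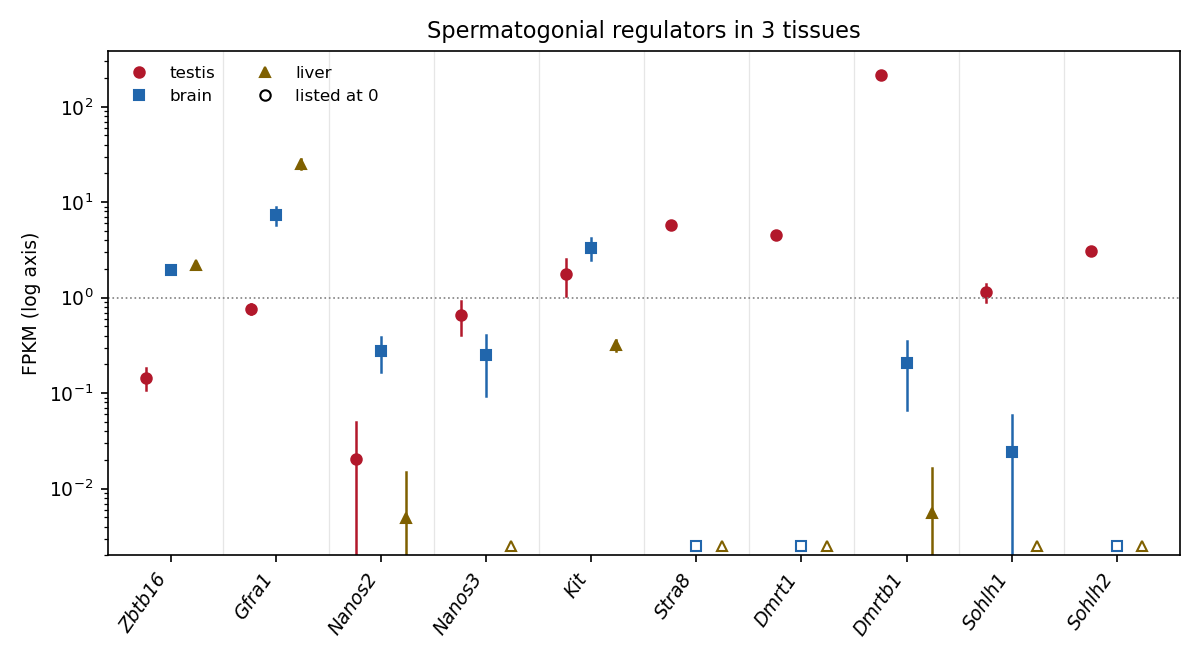
FPKM (log axis) of the 10 genes in testis, brain and liver, 1 library each; vertical lines are the authors' intervals, cut at the lower edge of the axis, open symbols at the lower edge are genes listed at 0, and the dotted line is 1 FPKM. Stra8, Dmrt1 and Sohlh2 have a filled symbol in testis only, while Gfra1 and Zbtb16 are lowest in testis.

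Calls of higher or lower required a 4-fold difference on log2(FPKM + 1), a scale that understates differences of low genes, and intervals that were apart. Against brain, Stra8, Dmrt1, Dmrtb1 and Sohlh2 were higher in testis, 4 of the 10, where 11% of all genes and 14.2% of protein-coding genes were called higher. Gfra1 was lower in testis, 1 of the 10, where 7.19% and 10.4% were called lower. Against liver the same 4 were higher and Gfra1 was lower, where 15.2% of all genes and 20.2% of protein-coding genes were called higher, and 3.82% and 5.96% lower. The comparisons share the testis library, so the second list does not add to the first. Counts of called genes in the other lists below are to be read beside these same shares. Between brain and liver none of the 10 was called in either direction, where 9.15% of all genes and 13.7% of protein-coding genes were called higher in brain, and 2.79% and 4.55% lower. By intervals apart at any size, 5 members were higher and 3 lower in testis than in brain (28.3% and 24.6% of all genes), and 7 were higher and 2 lower in testis than in liver (39.6% and 13.4%). For brain against liver these counts were 4 and 2 (37.5% and 9.87%). The median member difference was 0.74 on log2(FPKM + 1) for testis minus brain and 1.09 for testis minus liver, beside 0.00 and 0.02 over all genes.

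**Figure D2:**
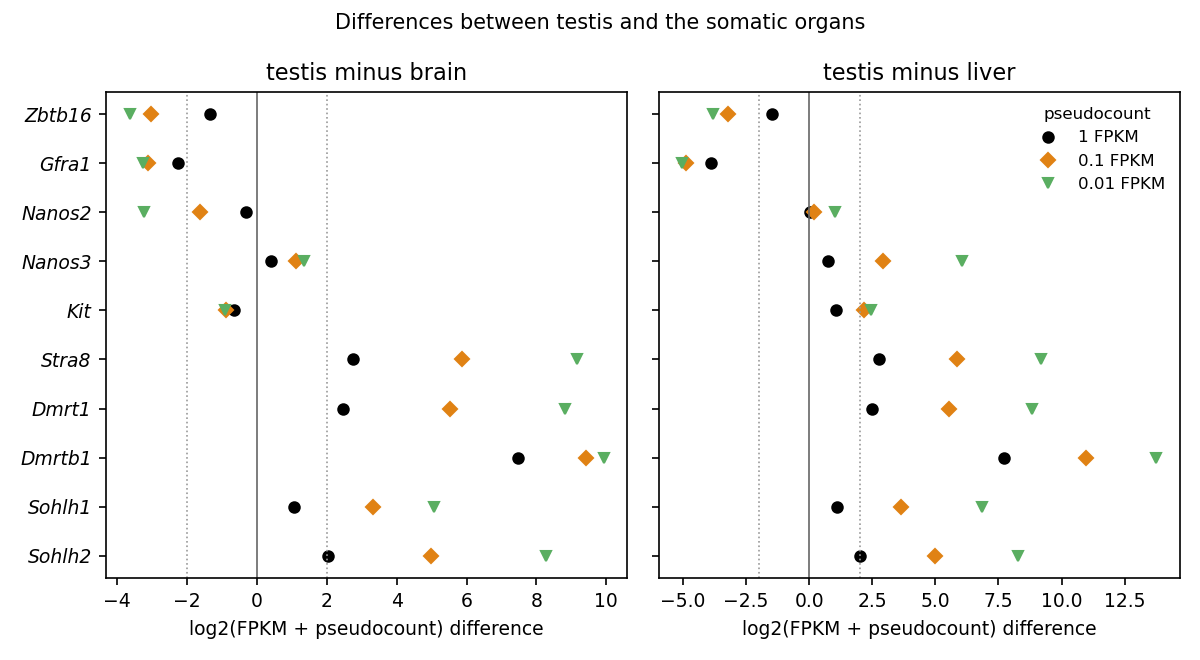
Differences of the 10 genes in log2(FPKM + pseudocount) for testis minus brain (left) and testis minus liver (right), computed with pseudocounts of 1, 0.1 and 0.01 FPKM; dotted lines mark 4-fold. Dmrtb1 lies at 7.47 and 7.73 with a pseudocount of 1, Gfra1 is left of -2 in each panel, and Zbtb16 passes -2 with the smaller pseudocounts.

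Among the genes of the undifferentiated state, Zbtb16 (ENSMUSG00000066687, chr9:48462416-48644050 on mm9, minus strand) encodes a BTB zinc finger repressor needed for stem cell maintenance. It was at 0.146 FPKM in testis (interval 0.107 to 0.185), compared with 1.93 in brain (1.79 to 2.07) and 2.20 in liver (2.10 to 2.31). Testis was the lowest of the 3 with its interval apart from both others, 13.2-fold below brain and 15.1-fold below liver on the FPKM scale. On log2(FPKM + 1) the differences of -1.35 and -1.48 did not reach 4-fold, and with a pseudocount of 0.1 FPKM they were -3.05 and -3.23 and did. Scaled to the sum over all genes, testis minus brain shrank to -0.24, while it was -1.74 with the protein-coding sum and -1.22 with the median ratio. Brain and liver lay close as deposited, and their order turned when FPKM was scaled to the protein-coding sum. With the median ratio brain minus liver was -0.65. With the sum over all genes it was -2.17 and testis minus liver was -2.41, both called lower.

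Of the genes listed beside Zbtb16, its relative Zbtb32 was at 38.7 FPKM in testis, compared with 0.0238 in brain and 0.0479 in liver, with testis the highest. Among its known partners, Hdac1, a histone deacetylase, was at 34.3 FPKM in testis, compared with 4.59 in brain and 2.85 in liver. Cul3, the ubiquitin ligase scaffold that binds BTB proteins, was at 643, 110 and 60.2 FPKM in the same order. These 3 were the genes called higher in testis in each comparison, of 12 corepressors and related genes. One was called lower in each, Zbtb7a against brain (2.41 and 14.8 FPKM) and Zbtb7b against liver (0.535 and 5.76), and the direction of Zbtb7a turned when scaled to the sum over all genes. Over all genes 11% were called higher and 7.19% lower against brain, and 15.2% and 3.82% against liver. The list's median difference was -0.40 against brain and 1.06 against liver.

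Gfra1 (ENSMUSG00000025089, chr19:58310094-58530399, minus strand) encodes the GPI-anchored receptor that binds GDNF. It was at 0.769 FPKM in testis (interval 0.670 to 0.868), compared with 7.42 in brain (5.82 to 9.02) and 25.3 in liver (22.5 to 28.1). All 3 intervals were apart, and testis was 9.65-fold below brain and 33.0-fold below liver, differences of -2.25 and -3.90 on log2(FPKM + 1). Scaled to the sum over all genes, testis minus brain was -0.29 and no longer called. With the protein-coding sum it was -2.80 and with the median ratio -2.12, and both were called lower. Brain was 3.42-fold below liver, which is under 4-fold, and was called lower when scaled by the median ratio (-2.34) or to the sum over all genes (-4.55). Its intervals were wide in brain and liver: the upper half-width was 21.5% and 11.0% of the value, against 12.9% in testis at a much lower level. The 3' end of Gfra1 shares 444 bp with Gm16277 (chr19:58278629-58310537, plus strand), an antisense gene at 6.31 FPKM in testis (5.47 to 7.15), compared with 0.0669 in brain and 0 as listed in liver. Whether the gene values used the strand is not given in the sources used here, and the part of Gm16277 in the testis value of Gfra1 was not tested.

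The region just upstream of Gfra1 is shown because this gene was the 1 member called lower in testis, and those of Stra8, Sohlh1 and Sohlh2 follow with their values. The 250 bases before the annotated start are from RefSeq on GRCm38.p6, read 5′ to 3′ on the gene's strand. Capitals mark AGGTCA, the half-site of retinoic acid and related nuclear receptors, on either strand, and CACGTG, a palindromic E-box of the kind bound by basic helix-loop-helix factors. Such a match is a description of letters and not a bound site.
Gfra1 (chr19:58455399-58455648, minus strand): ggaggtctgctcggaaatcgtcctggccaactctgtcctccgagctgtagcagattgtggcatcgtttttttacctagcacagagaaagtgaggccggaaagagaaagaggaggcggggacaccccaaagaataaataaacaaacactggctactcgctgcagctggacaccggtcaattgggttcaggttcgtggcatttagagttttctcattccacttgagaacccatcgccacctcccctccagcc
The Gfra1 window held neither motif. AGGTCA was present in 14.0% and CACGTG in 6.02% of 32851 upstream windows of the same length.

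The GDNF system around Gfra1 differed between the tissues in which the receptor was high. The ligand gene Gdnf was at 0.205 FPKM in testis (0.148 to 0.261), compared with 0.0517 in brain (0.0230 to 0.0804) and listed at 0 in liver. Ret, the signalling kinase that GFRA1 recruits, was at 0.131 FPKM in testis (0.0498 to 0.213), compared with 1.82 in brain (1.53 to 2.11) and 0.00113 in liver (0 to 0.00353). Liver, with the most Gfra1, thus had the least of ligand and kinase. Ncam1, a cell adhesion gene whose product is an alternative GDNF coreceptor, was at 3.22 FPKM in testis, compared with 37.1 in brain and 0.0251 in liver. Of 10 ligand and receptor genes beside Gfra1, Artn, a ligand of the same family, was the 1 called higher in testis than in brain (5.64 and 0.340 FPKM) and Ncam1 the 1 called lower. Against liver Artn (0.0111 FPKM there) and Ncam1 were higher. Over all genes 11% were called higher and 7.19% lower against brain, and 15.2% higher against liver. The list's median difference was -0.15 against brain and 1.19 against liver. Gfra2, Gfra4 and Sdc3 had failed estimates in at least 1 library and are not described.

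Nanos2 (ENSMUSG00000051965, chr7:19572873-19574311, plus strand) encodes an RNA-binding protein that keeps male germ cells undifferentiated. It was at 0.0207 FPKM in testis (0 to 0.0500), compared with 0.277 in brain (0.169 to 0.386) and 0.00498 in liver (0 to 0.0150). Read back from the interval, as the square of 2 times the FPKM over the upper half-width, these values correspond to 2 fragments in testis, 26 in brain and 1 in liver. Brain was the highest with its interval apart from both others, but when scaled to the sum over all genes its interval overlapped that of testis (difference -0.04, against -0.32 as deposited). The testis and liver values rest on too few fragments to be ordered. Nanos3 (ENSMUSG00000056155, chr8:86697632-86700451, minus strand), needed for the survival of primordial germ cells and also present in spermatogonia, was at 0.660 FPKM in testis (0.406 to 0.914), compared with 0.252 in brain (0.0925 to 0.411) and listed at 0 in liver. The testis and brain values correspond to 27 and 10 fragments, and their intervals overlap narrowly. With a pseudocount of 0.1 FPKM Nanos3 was called higher in testis than in liver (2.93).

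Pumilio and CCR4-NOT genes, whose products act with NANOS proteins, were above Nanos2 and Nanos3 in each tissue. Dnd1, the germ cell RNA-binding partner of NANOS2, was at 1.33 FPKM in testis, compared with 0.624 in brain and 0.407 in liver, and the Pumilio gene Pum2 at 25.1, 23.6 and 17.7. Cnot1, the scaffold of the CCR4-NOT deadenylase, was at 25.9 FPKM in testis, compared with 4.70 in brain and 5.08 in liver, and was the 1 of 15 genes called higher against brain. Cnot1 and Cnot10, another subunit (19.3 FPKM in testis and 3.52 in liver), were called higher against liver. None of the 15 was called lower in testis in either comparison. Cnot6l was at 1.90 FPKM in testis, a failed estimate (0 to 277), and at 35.3 in brain, so it could not be called. Over all genes 11% were called higher against brain and 15.2% against liver, and 7.19% and 3.82% lower. The list's medians were 0.29 and 0.73. The remaining family gene, Nanos1, was at 0.182 FPKM in testis, compared with 2.37 in brain and 0.00165 in liver, with the testis and brain intervals apart.

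Of the differentiation genes, Kit (ENSMUSG00000005672, chr5:75970941-76052747, plus strand) encodes the receptor of stem cell factor. It was at 1.79 FPKM in testis (1.03 to 2.54), compared with 3.36 in brain (2.49 to 4.22) and 0.319 in liver (0.275 to 0.363). The testis and brain intervals overlap narrowly, and the order of those tissues turned when FPKM was scaled to the sum over all genes, which multiplies testis by 6.89 relative to brain. Testis was 5.60-fold and brain 10.5-fold above liver on the FPKM scale with intervals apart, or 1.08 and 1.72 on log2(FPKM + 1), below the fold for a call; with a pseudocount of 0.1 FPKM they were 2.17 and 3.05 and reached it. Scaled to the sum over all genes, testis minus liver was 1.13, while brain minus liver was -0.0033 and brain was no longer above liver. The upper half-width was 42.2% of the value in testis and 25.8% in brain, but 13.9% in liver where the level was lowest. Haploid germ cells of the mouse are known to make a short Kit transcript from an internal promoter, and the gene value does not separate it from the full-length receptor.

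The ligand gene Kitl was at 4.10 FPKM in testis (3.73 to 4.46), compared with 11.8 in brain (11.3 to 12.4) and 1.10 in liver (0.965 to 1.24), the same order as Kit, and likewise with brain and testis turned under the sum over all genes. Of 10 genes for the ligand, related receptors and signalling proteins, none was called higher in testis than in brain and 3 were lower, the adaptor gene Grb2 (12.9 and 155 FPKM), the PI3-kinase subunit gene Pik3r1 (0.914 and 18.0) and Csf1r (1.44 and 9.49). The direction of Csf1r turned when scaled to the sum over all genes. Against liver Gab2, an adaptor, was higher in testis (4.02 and 0.193 FPKM) and Pik3r1 was lower (10.1 in liver). Over all genes 11% were called higher and 7.19% lower against brain, and 15.2% and 3.82% against liver. The list's medians were -1.37 and -0.35. Besides spermatogonia, Kit is known in Leydig cells and mast cells. In testis 8 of 9 Leydig cell genes were at 1 FPKM or more and their sum was 491 FPKM (299 of it Insl3, whose estimate failed), against 1.73 in brain and 25.5 in liver, with 7 called higher than in brain and 6 than in liver. Of 8 mast cell genes 1, Hdc, reached 1 FPKM in testis and none did in brain or liver. Their sums were 5.06 FPKM in testis, of which Hdc gave 4.80, 0.871 in brain and 0.235 in liver, and Tpsab1 was listed at 0 in each. None was called against brain and Hdc was called higher than in liver. The part of these cells in the Kit values was not tested.

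Stra8 (ENSMUSG00000029848, chr6:34870163-34889342, plus strand) was at 5.74 FPKM in testis (5.28 to 6.20) and listed at 0 in brain and in liver. Dmrt1 and Sohlh2 had the same pattern. Of the 6 members at 1 FPKM or more in testis, 3 were listed at 0 in both other tissues, while 245 of 11673 protein-coding genes at that level in testis were, or 2.10%. No fold is given against a listed 0. The difference of 2.75 on log2(FPKM + 1) is therefore a scale value, and it was 5.87 with a pseudocount of 0.1.

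The upstream window of Stra8 is shown because the gene is a textbook target of retinoic acid.
Stra8 (chr6:34920698-34920947, plus strand): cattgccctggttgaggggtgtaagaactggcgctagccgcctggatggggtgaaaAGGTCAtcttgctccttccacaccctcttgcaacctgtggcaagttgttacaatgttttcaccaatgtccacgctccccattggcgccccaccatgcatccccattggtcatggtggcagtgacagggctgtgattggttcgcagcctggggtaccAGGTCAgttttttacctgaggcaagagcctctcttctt
It held 2 AGGTCA matches, whose first bases lie 194 and 38 bases before the start, and no CACGTG. Of 32851 windows, 1.36% held 2 or more AGGTCA matches. Among the 8 members with a RefSeq promoter entry, the other window with AGGTCA was that of Sohlh1.

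The retinoic acid pathway had its synthesis, binding, receptor and degradation genes measured in all 3 tissues. Aldh1a2, the retinaldehyde dehydrogenase expressed in germ cells, was at 34.3 FPKM in testis (33.3 to 35.2), compared with 2.91 in brain (2.63 to 3.18) and 0.0656 in liver (0.0377 to 0.0936). Aldh1a1, the form known in Sertoli cells and in liver, was at 87.1 FPKM in testis, compared with 44.6 in brain and 159 in liver. The binding protein gene Crabp1 was at 3.87 FPKM in testis, compared with 0.243 in brain and 0.0103 in liver. Of the receptors, Rara was at 6.08 FPKM in testis, compared with 2.29 in brain and 1.97 in liver, and Rarg, known in spermatogonia, at 1.24, 3.05 and 1.56. Among the degrading enzymes, Cyp26b1 was at 2.79 FPKM in testis, compared with 0.661 in brain and 1.29 in liver, and Cyp26a1 at 0.489, 0.0923 and 3.22. Rec8, a meiotic cohesin gene also induced by retinoic acid, was at 39.0 FPKM in testis, compared with 1.396 in brain and 0.270 in liver. Of 19 pathway genes, Aldh1a2 and Rec8 were called higher in testis than in brain and none lower. Against liver Aldh1a2, Crabp1 and Rec8 were higher and Dhrs3, a retinaldehyde reductase, was lower (7.55 and 80.5 FPKM). The counts of higher genes were near the shares over all genes, 11% against brain and 15.2% against liver. The shares called lower were 7.19% and 3.82%. The list's medians were 0.43 and -0.07.

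**Figure D3:**
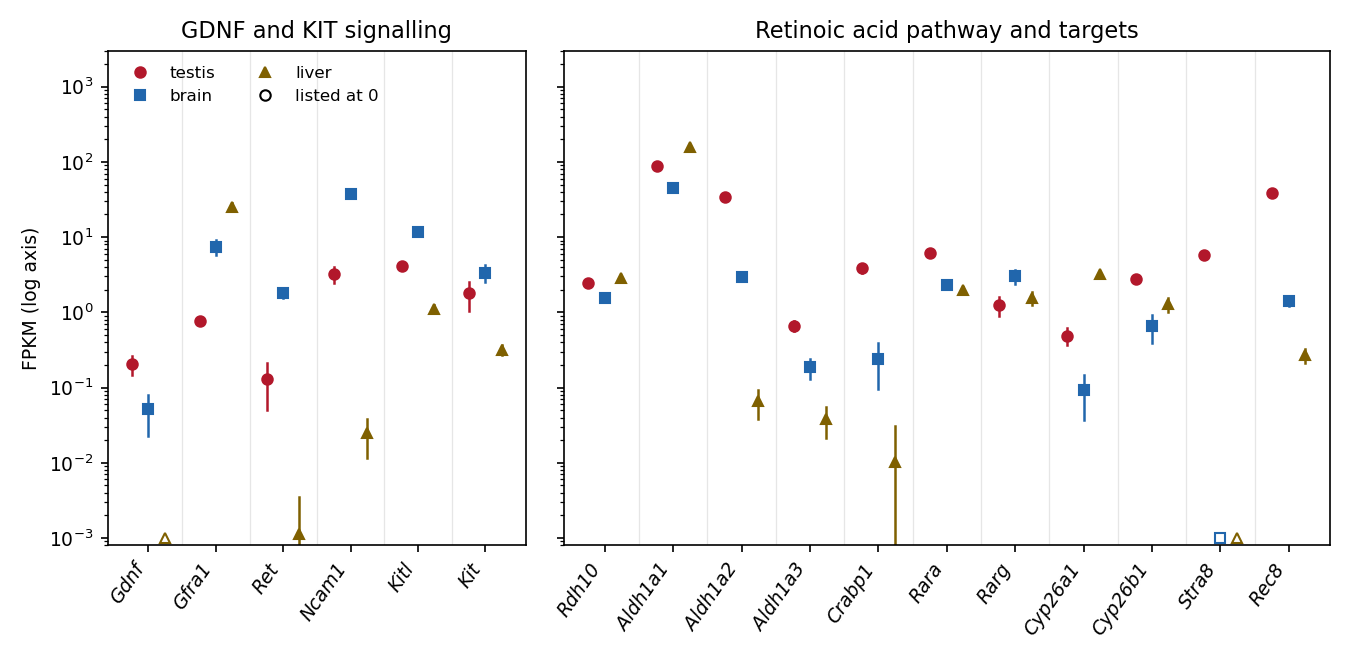
FPKM (log axis) of GDNF and KIT ligands and receptors (left) and of retinoic acid pathway genes with the targets Stra8 and Rec8 (right) in testis, brain and liver, 1 library each; vertical lines are the authors' intervals, cut at the lower edge of the axis, and open symbols are genes listed at 0. Liver has 25.3 FPKM of Gfra1 with 0.00113 of Ret, and testis leads for Aldh1a2 at 34.3 FPKM, Stra8 and Rec8.

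Dmrt1 (ENSMUSG00000024837, chr19:25580108-25678819, plus strand) encodes a DM domain transcription factor of spermatogonia and Sertoli cells. It was at 4.55 FPKM in testis (4.17 to 4.93) and listed at 0 in brain and liver, a difference of 2.47 on log2(FPKM + 1) against each. Sertoli cell genes were present in the same library: 12 of 15 were at 1 FPKM or more, among them the transcription factor genes Wt1 at 7.40 and Gata4 at 6.99 FPKM. None of the 15 was at 0 in testis, 2 were in brain and 4 in liver, and the sums were 1438, 1471 and 18224 FPKM, of which Clu and Trf, the second also on the list of liver genes, gave most in brain and liver. Of the 15, 5 were called higher and 1 lower in testis than in brain, and 6 higher and 1 lower than in liver. The part of Sertoli cells in the Dmrt1 value was not tested.

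Dmrtb1 (ENSMUSG00000028610, chr4:107348895-107356835, minus strand) was the most abundant member by far, at 213 FPKM in testis (210 to 216), compared with 0.209 in brain (0.0672 to 0.351) and 0.00552 in liver (0 to 0.0165). The liver value corresponds to 1 fragment. The brain value reads back as 9, at 0.0240 FPKM per fragment against 0.0115 in testis, so 9 is probably too low. Testis was 1020-fold above brain on the FPKM scale, and the differences on log2(FPKM + 1) were 7.47 and 7.73. Dmrtb1 exceeded Dmrt1 by 46.8-fold in testis per length, and the next DM domain gene, Dmrtc2, by 7.30-fold.

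Of the 9 other DM domain genes, Dmrtc2, known in meiotic germ cells, was at 29.2 FPKM in testis, compared with 0.0279 in brain and listed at 0 in liver. The X-linked Dmrtc1a stood at 17.5 FPKM in testis and 1.73 in brain, Dmrtc1b at 5.45 and 0.0252, and Dmrtc1c1 at 3.36 and 0. The Dmrtc1 copies are nearly identical, so the split of reads between them is uncertain. These 4 were called higher in testis against brain and against liver, and none was lower, with medians of 1.59 and 1.58. Dmrta1 was at 2.02 FPKM in testis, compared with 0.0339 in brain and 0.0412 in liver. The next protein-coding gene after Dmrt1 on chromosome 19 is Dmrt3, 6207 bp away, at 0.193 FPKM in testis (0.126 to 0.260) and at 0.205 in brain (0.134 to 0.275), with Dmrt2 beyond it at 0.131 and 0.191. Within this cluster levels in testis differed: Dmrt1 was at 4.55 FPKM, and neither neighbour reached 0.2.

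**Figure D4:**
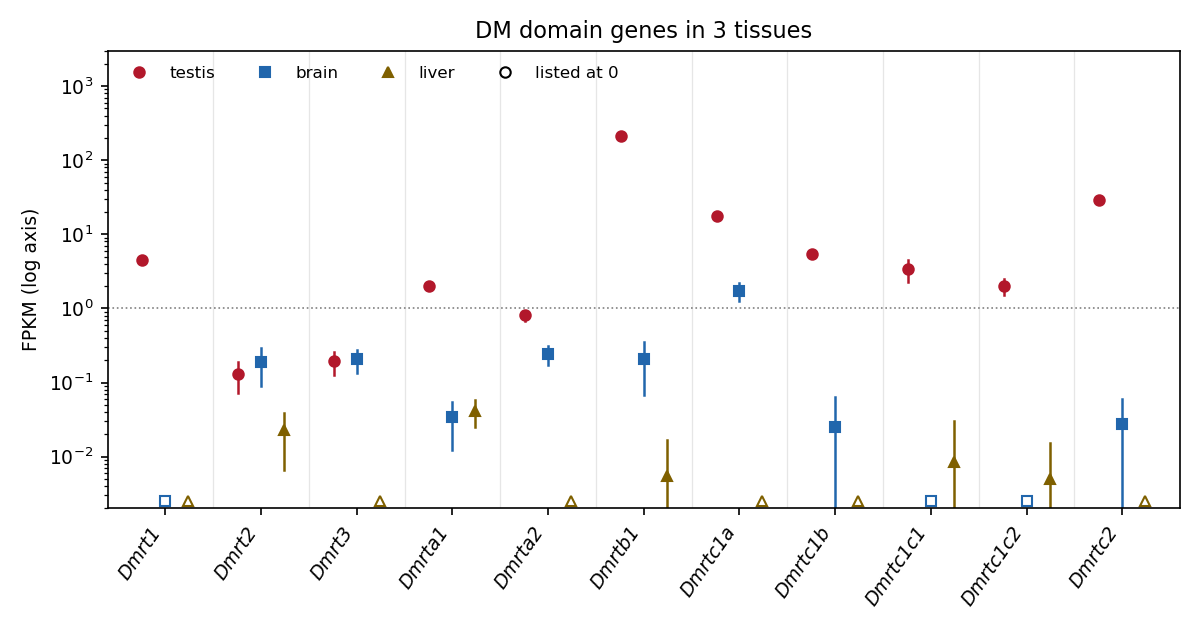
FPKM (log axis) of the 11 DM domain genes in testis, brain and liver, 1 library each; vertical lines are the authors' intervals, cut at the lower edge of the axis, open symbols are genes listed at 0, and the dotted line is 1 FPKM. Dmrtb1 at 213 FPKM and Dmrtc2 at 29.2 lead in testis, and Dmrtc1a at 1.73 is the only one above 1 FPKM in brain.

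Sohlh1 (ENSMUSG00000059625, chr2:25698515-25702768, minus strand) and Sohlh2 (ENSMUSG00000027794, chr3:54985950-55013879, plus strand) encode basic helix-loop-helix factors that act together in differentiating spermatogonia. Sohlh1 was at 1.14 FPKM in testis (0.912 to 1.38), compared with 0.0243 in brain (0 to 0.0587) and listed at 0 in liver. The testis value corresponds to 97 fragments and the brain value to 2. On log2(FPKM + 1) the differences were 1.07 and 1.10 and Sohlh1 was not called, while with a pseudocount of 0.1 they were 3.32 and 3.64. Sohlh2 was at 3.07 FPKM in testis (2.81 to 3.34) and listed at 0 in brain and liver, with a difference of 2.03, just past the fold. It was 1.88 when scaled to the protein-coding sum and 1.86 by the median ratio, and Sohlh2 was then not called against either tissue. Within testis Sohlh2 was 2.69-fold above Sohlh1 per length, with intervals apart.

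The upstream windows of the 2 genes are shown together because their products act as partners.
Sohlh1 (chr2:25847249-25847498, minus strand): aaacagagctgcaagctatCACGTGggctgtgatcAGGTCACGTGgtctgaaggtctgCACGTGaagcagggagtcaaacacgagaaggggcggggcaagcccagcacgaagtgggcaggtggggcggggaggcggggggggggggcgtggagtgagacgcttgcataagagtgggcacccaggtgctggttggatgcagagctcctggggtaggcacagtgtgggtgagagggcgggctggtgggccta
Sohlh2 (chr3:55181794-55182043, plus strand): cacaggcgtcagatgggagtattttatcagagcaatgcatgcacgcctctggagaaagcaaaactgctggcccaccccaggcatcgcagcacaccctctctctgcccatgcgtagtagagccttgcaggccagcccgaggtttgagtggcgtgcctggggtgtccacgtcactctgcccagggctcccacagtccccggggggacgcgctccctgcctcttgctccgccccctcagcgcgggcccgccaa
The Sohlh1 window held 3 CACGTG matches, starting 231, 211 and 192 bases before the start, and 1 AGGTCA at 215 bases that shares its last 2 letters with the second of them. Of 32851 windows, 0.0609% held 3 or more CACGTG matches. The Sohlh2 window held neither motif. For the looser E-box CANNTG, which includes CACGTG, the counts were 5 in Sohlh1 and 1 in Sohlh2, and 66.2% of all windows held at least 1.

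Oocyte genes, several of them known as targets of these factors in the ovary, were mostly low in testis. Figla, which encodes an oocyte helix-loop-helix factor, was at 0.741 FPKM in testis, compared with 0.0239 in brain and listed at 0 in liver, and Nobox was at 0.0227, 0.0156 and 0. The zona pellucida genes Zp1, Zp2 and Zp3 stood between 0.00634 and 0.137 FPKM in testis. Gdf9, an oocyte growth factor gene, was the exception at 4.95 FPKM in testis, compared with 0.489 in brain and 0.317 in liver, called higher against liver. None of 7 matched genes was called against brain, where Gdf9 at 1.998 lay just under the 4-fold cut with intervals apart. The medians were 0.12 and 0.12.

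Marker genes of later germ cells matched the tissue labels, and some were also detected in brain and liver. All 13 genes of meiotic prophase and all 10 of spermatids were at 1 FPKM or more in testis, with sums of 1102 and 37915 FPKM. Called higher than in brain were 12 and 9 of them, and higher than in liver 11 and 9. In brain the sums were 4.91 and 29.6 FPKM, which is 0.446% and 0.0782% of testis. Mlh3 alone gave 2.96 of the 4.91 FPKM, and the median share per gene was 0.215% and 0.0653%. None of the 10 spermatid genes was at 0 in brain, and 4 were at 1 FPKM or more there. Among these were Tnp1 at 13.5, Prm2 at 9.56 and Tnp2 at 3.24 FPKM. These 3 of the 10 were called higher in brain than in liver, where 9.15% of all genes were. In liver the sums were 3.01 and 0.323 FPKM, or 0.274% and 0.000852%, with 3 of 13 and 3 of 10 at 0. Meiob (1.58 FPKM) and Mlh3 (1.31) gave most of the 3.01 FPKM. Beside this, Dmrtb1 in brain was 0.0981% of its testis value, Sohlh1 2.12% and Nanos3 38.2%, while Zbtb16, Gfra1, Nanos2 and Kit were above theirs. How far these levels bear on the brain values of Dmrtb1, Sohlh1 and Nanos3 was not tested. The 14 neuronal and glial genes summed to 35.0 FPKM in testis and 4125 in brain, and 13 were called lower in testis, of which Slc1a2 turned in direction when scaled to the sum over all genes. The 12 liver genes summed to 43.7 FPKM in testis and 70966 in liver, and 9 were lower in testis. Against brain 1 of these 12 was higher in testis and 2 were lower. Of 6 peritubular myoid cell genes, all at 1 FPKM or more in testis, Actg2 was called higher than in brain (145 and 0.228 FPKM), and Acta2 and Actg2 higher than in liver.

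Genes with the most similar levels were sought over the 3 libraries by distance in log2(FPKM + 0.1). Closest to Dmrtb1 were Tex101, a germ cell surface protein gene (distance 0.08), and Lkaaear1 (0.11). Close to Dmrt1 was Rnf212, a meiotic crossover gene at 4.54 FPKM in testis (0.0025), and closest to Kit was Plxna1 (0.052), a semaphorin receptor gene. Gfra1 had as its nearest Slc39a14, a metal transporter gene at 0.887 FPKM in testis, compared with 6.42 in brain and 21.8 in liver (0.35), and Irgm1 (0.49). Nearest to Zbtb16 were Tnfrsf12a (0.21) and Ifit1 (0.43). Within a distance of 0.5 lay 3 protein-coding genes for Gfra1, 4 for Zbtb16, 19 for Kit, 24 for Nanos3 and 43 for Dmrtb1. For Stra8, Dmrt1, Sohlh1 and Sohlh2 there were 107 to 118, and for Nanos2, low in each library, 142. Over 3 libraries such likeness is only a description.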

How the data were processed

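The authors deposited 1 table per tissue of gene FPKM with confidence bounds and the status of each estimate, per the file headers, which name no level for the bounds. Libraries were sequenced single-end for 76 cycles in 3 lanes each, per the labels' protocols. The build mm9 and the tools Cufflinks 2.0.0, Bowtie 0.12.5 and TopHat 1.4.0 are named in the submitters' processing notes. Annotation and filters were not given in the sources used here. Depth is unknown. Fragments were read from the upper half-width of an interval, which covers the estimate only. Where an interval is wider than counting error alone, as for Kit, Gfra1 and Dmrtb1 in brain, that number is too low.

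The 36809 identifiers in all 3 tables were used, with FPKM summed for 12 at more than 1 locus. Symbols and classes came from GENCODE M21 by identifier (31837 matched). Coordinates are the tables' own on mm9 with 1 added to the start, which matched the reference for 37 of 37 mitochondrial genes. No filter on low values was applied, and failed estimates stayed among the genes counted. Calls used a pseudocount of 1 FPKM and a 4-fold minimum over all genes, were tested on simulated data, and were repeated under the alternatives given in the closing section. Promoter windows of 250 bases were searched on both strands, in RefSeq entries for 8 of the 10 genes.

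The members and 17 lists with 217 entries (3 not matched) were chosen with earlier results of these data known. By rule, genes of the pathway and partner lists, the 3 highest of each marker list in testis, those called against the direction of most of their list and the 2 nearest genes by likeness could be named; some are not reported here. Chosen after their values were seen were Wt1, Gata4, Clu, Ccnd2, Pou5f1, Thy1, Etv5, Cdh1, Acta2, Mlh3, Meiob, the promoters shown and the overlapping and neighbouring genes. Dnmt3a, Ccnd1, Ythdc2 and Prdm1 were also chosen after their values were seen. Python 3.11.15, NumPy 2.4.6, pandas 2.3.3 and Matplotlib 3.10.9 were used.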

Additional observations from a re-analysis of the deposited data

How the results depend on the processing

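No call of a member turned its direction under any alternative run. The number of members called depended most on the pseudocount. With 0.1 FPKM 5 were higher and 2 lower in testis than in brain, 7 higher and 2 lower than in liver, and 1 was higher in brain than in liver. Of 36809 genes, 5976 and 4296 were then called against brain, 8748 and 2152 against liver, and 6139 were higher in brain than in liver. With 0.01 FPKM the members' counts were 5, 3, 7, 2 and 4. Over all genes the same counts were 6910, 5036, 10456, 2565 and 7897. Scaling to the protein-coding sum made 1 higher in brain than in liver, and the median ratio made 1 lower. Scaling to the sum over all genes left 0 lower in testis than in brain. It gave 2 lower in testis than in liver, where 2155 of all genes were, and 2 lower in brain than in liver. A 2-fold minimum gave 5 higher and 2 lower in testis than in brain, 6 and 2 for testis against liver, and 1 and 1 for brain against liver, where over all genes 6486 and 5131, 9032 and 2565, and 7117 and 1786 were called. An 8-fold minimum left 1 higher in testis in each comparison, Dmrtb1, with 0 lower than brain and 1 lower than liver. Over all genes, 2616 and 1372 were then called against brain and 3480 and 796 against liver. The cause was not tested beyond what each setting does by construction. Of 150 single differences recomputed under another pseudocount or scaling, 50 stayed within the span of the authors' bounds and 100 moved out of it. Brain minus liver of Stra8, Dmrt1 and Sohlh2 is 0 in every setting, so these could not move. The span was taken with a pseudocount of 1 FPKM, so a smaller pseudocount shifts the scale itself. Turned in sign were 3 that had not been called, Zbtb16 for brain minus liver and Kit for testis minus brain and brain minus liver. Of the list genes called between testis and brain, Csf1r, Zbtb7a and Slc1a2 turned in sign under the sum over all genes. Over genes at 1 FPKM in any library, the median of testis minus brain was 0.06 as deposited, -0.42 with the protein-coding sum and 1.96 with the sum over all genes. For testis minus liver it was 0.88, and 0.42 with the median ratio. Over all genes, 4057 were called higher and 2648 lower in testis than in brain, against 3356 and 3880 with the protein-coding sum and 9433 and 568 with the sum over all genes. For brain against liver the counts were 3367 and 1027, against 5350 and 776 with the protein-coding sum, 2521 and 1381 with the median ratio and 930 and 6296 with the sum over all genes. No paired analysis was possible because each tissue had 1 library. Values of 1 or 2 fragments, as for Nanos2 in testis and liver, cannot be ordered at this depth.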

Other observations

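Other genes used as markers of undifferentiated spermatogonia were also spread over the organs. Of 28, Bmi1, a Polycomb gene at 65.3 FPKM in testis, compared with 8.26 in brain and 4.06 in liver, and Pou5f1 (4.11 FPKM in testis and listed at 0 in both others) were called higher in testis than in brain. Called lower were the surface glycoprotein gene Thy1 (0.0751 and 226 FPKM), Uchl1 (25.5 and 274) and Etv5, a target of GDNF signalling (2.33 and 19.9). Against liver Id4, at 11.2 FPKM in testis and 0.401 in liver, Bmi1, Pou5f1 and Uchl1 were higher, and Cdh1, the E-cadherin gene, was lower (0.155 and 18.2 FPKM). Over all genes 11% were called higher and 7.19% lower against brain, and 15.2% and 3.82% against liver. The list's medians were -0.08 and 0.44. Of 17 genes of differentiating spermatogonia and meiotic entry 8 were higher in testis than in brain, 8 than in liver and none was called lower, with medians of 1.67 and 1.9997. The 3 highest of them in testis were Sycp3 at 139 FPKM against 0.611 in brain, Ddx4 at 132 and 0.705, and Ccna1 at 54.6 and 0.222. The cyclin gene Ccnd2, known in spermatogonia, was at 0.341 FPKM in testis against 3.58 in brain.

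Levels of some of the nearest protein-coding genes follow. Next to Sohlh2, Ccdc169 was at 127 FPKM in testis, compared with 0.150 in brain and 0.0472 in liver, 9092 bp before it, and Dclk1, a neuronal kinase gene 32568 bp after it, was at 0.671, 73.0 and 0.0169. Beside Nanos3, 4930432K21Rik ends 1142 bp away on the other strand and was at 31.3 FPKM in testis, compared with 0.655 in brain and 0.0160 in liver, in the order of Nanos3. Kit lies between Pdgfra, at 1.29 FPKM in testis, compared with 3.72 in brain and 0.332 in liver, and Kdr, at 0.501, 1.43 and 5.59. Pdgfra had the same order as Kit, and under the sum over all genes testis and brain turned for it too.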
